A study of Mus musculus with 18 samples.

Results

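The 41 genes described here are known targets of type I interferon, fixed as a list of symbols covering transcription factors of the pathway, RNA sensors and the OAS, IFIT, PARP, ubiquitin-like and antiviral effector genes. They are 41 of the 55469 genes in each deposited table, and every symbol matched 1 gene. Their RNA levels were examined in the ventral and lateral prostate lobes of male mice on a C56NL/6N background at 10 and 30 weeks of age. The comparison was of 3 genotypes, with 3 libraries for each genotype and age, each from 1 mouse per the study's methods. They were WT mice carrying ELAC2+/+, KO mice labelled ELAC2-/-, in which Cre under the prostate-specific probasin promoter (Pb-Cre) excises exon 8 of Elac2, and A537T mice, homozygous throughout the body for an Elac2 allele with a threonine in place of an alanine. In the KO line the recombination is limited to cells in which Pb-Cre is active, so other cells of the lobes keep the gene, whereas every cell of an A537T mouse carries the variant. None of the mice described here carried the TRAMP transgene. ELAC2 is the RNase Z enzyme that trims the 3′ ends of nuclear and mitochondrial tRNAs. The WT libraries of an age served as the control of both mutant lines, so the comparisons of KO and of A537T with WT share their control values. The deposited columns carry library codes (1AF to 18AF) and no genotype: columns found in both tables of an age were taken as WT, since WT is the only group the tables share, and the mutant line of a table was taken from the study's own listing of mean counts.

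Type I interferons are secreted proteins that cells make when sensors detect foreign or misplaced nucleic acid. They bind the receptor IFNAR on the same or neighbouring cells, whose kinases JAK1 and TYK2 phosphorylate STAT2 among other proteins. STAT2 and IRF9 are parts of the complex ISGF3, which enters the nucleus and binds interferon-stimulated response elements (ISRE) in the promoters of the induced genes. Among the products are more sensors, more IRF7, STAT2 and IRF9, and proteins that degrade or sequester viral RNA or block its translation. In the prostate, as in other tissues, epithelial, stromal and immune cells can all express them.

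The deposited values are counts divided by size factors, here called normalized counts, and differences are log2 fold changes of log2(normalized count + 1), mutant minus WT. Library totals were 6569642 to 11225281 recovered reads, with a median of 8586877. Prostate epithelial markers were present in every library, although their summed level ranged from 34800 to 1448000 normalized counts. In the KO table at 10 weeks the sum was 34800 to 285800 in KO, wholly below 295000 to 1381000 in WT. The part of this difference in the members' levels was not tested. The seminal vesicles, which adjoin the prostate, were removed at dissection per the labels. RNA of 8 seminal vesicle genes made up 4.46% to 10.3% of the counts in WT library 10AF, all KO libraries at 10 weeks, KO libraries 4AF and 6AF and A537T libraries 7AF and 9AF. It made up 1.76% or less in the other libraries, with 7.13e-05% in KO library 5AF and 7.99e-05% in A537T library 8AF. All 3 WT libraries at 30 weeks had at most 0.000335%. Skeletal muscle genes made up 1.48% to 5.24% of the counts of the 10-week WT libraries. Their share was 0.0264% to 0.834% in the KO libraries of that age and 0.508% to 1.6% in the A537T libraries. Elac2 itself was counted in every library. The 30-week KO libraries held 98.4, 151 and 122 normalized counts and their WT controls 149.6, 153 and 194, which is a log2 fold change of -0.43 (SE 0.20) with a limma adjusted p of 0.478. The 10-week KO libraries held 119, 111 and 115, beside 124, 142 and 166 in WT. The A537T libraries held 173, 165 and 158 at the younger age and 121, 189 and 114 at the older. A count over the whole gene cannot show the loss of 1 exon, nor the change of 1 residue, so these counts do not check the genotype labels. The tissue was sequenced in bulk, so that a difference in how many cells of a type were present and a difference in RNA per cell cannot be told apart.

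Genes with a mean of at least 10 normalized counts in a table were tested there with limma. In A537T at 30 weeks, 38 of the 40 members tested lay above WT in their mean and 23 of them had an unadjusted limma p under 0.05, all of them higher. Their median log2 fold change was 0.85, while the median over the 14789 genes tested was -0.0052. The same members in the other 3 comparisons had medians of 0.036 (KO at 30 weeks, 38 tested), 0.13 (KO at 10 weeks, 36 tested) and 0.10 (A537T at 10 weeks, 36 tested). No member, and none of the genes tested, passed an adjusted p of 0.05 by limma in any of the 4 comparisons, a background of 0%. The share of all genes with an unadjusted p under 0.05 and a higher level was 7.35% in A537T at 30 weeks, 5.56% in KO at 30 weeks, 7.97% in KO at 10 weeks and 2.76% in A537T at 10 weeks. The corresponding shares on the lower side were 6.28%, 5.41%, 11.5% and 3.67%. Against these, members passed in 23 of 40, 7 of 38, 5 of 36 and 2 of 36 on the higher side, and in 0, 1, 2 and 0 on the lower side.

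**Figure D1:**
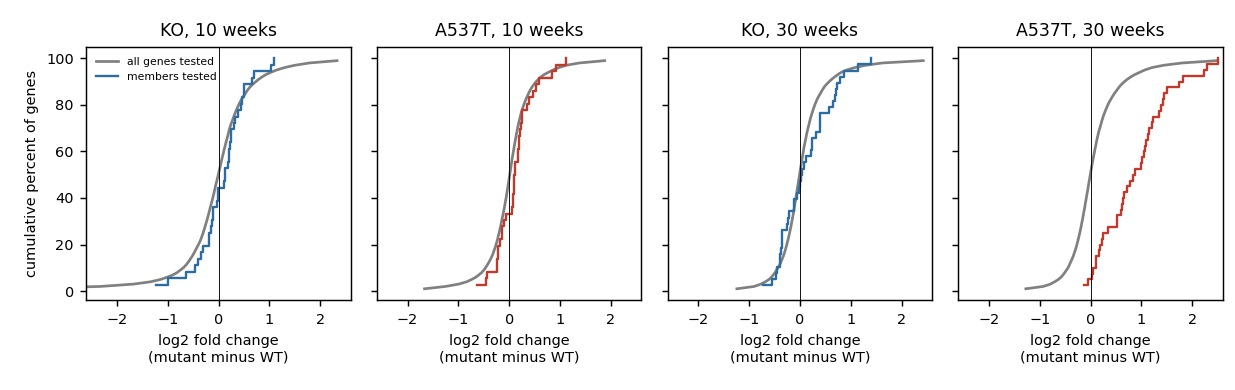
Cumulative percent of genes (vertical axis) by log2 fold change of mutant minus WT (horizontal axis) in each comparison, for all genes tested (grey) and for the members tested (blue for KO, red for A537T). In A537T at 30 weeks the members lie to the right of all genes, with a median of 0.85, and in the other 3 comparisons their medians are 0.036 to 0.13.

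**Figure D2:**
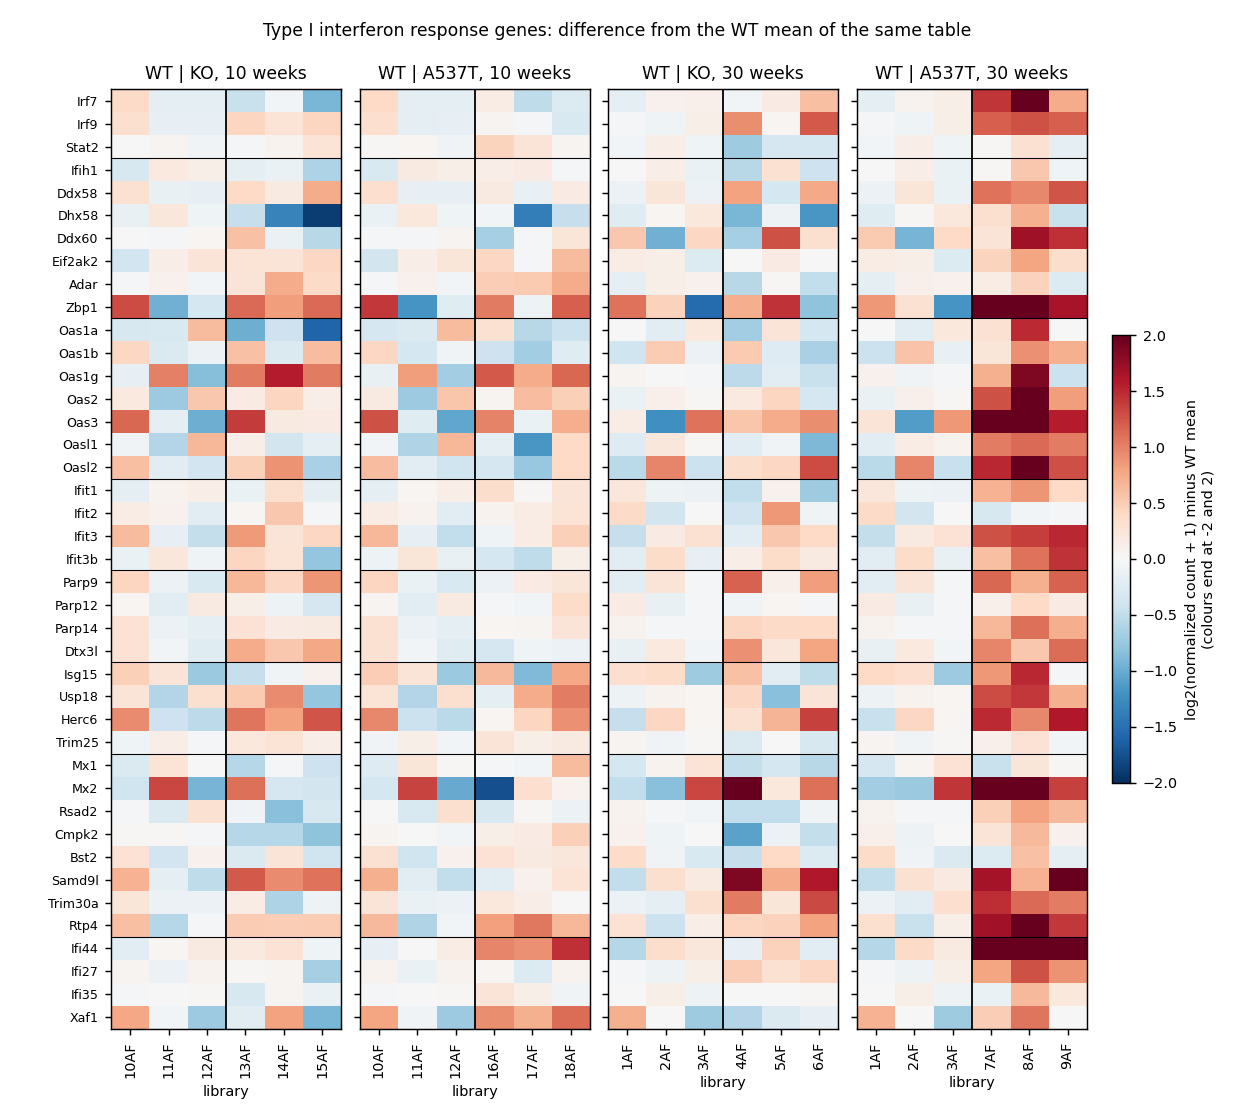
Difference of each of the 41 members (vertical axis, grouped by role between black lines) from the mean of the WT libraries in the same table, in log2(normalized count + 1), for every library (horizontal axis); WT libraries are left of the black line in each panel and colours end at -2 and 2. The 3 A537T libraries at 30 weeks are red for most members, and library 8AF is the highest of them for 30 of the 40 members tested.

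Promoter sequences were available for 30 of the 41 members, as RefSeq windows of build GRCm38.p6 reaching from 250 bases before the annotated start to 50 bases after it. They are shown because the ISRE is the site through which ISGF3 acts. The core searched was GAAANNGAAA, on either strand, with overlapping matches counted separately. It was found in 15 of the 30 members (50.0%), and in 3.99% of the 27025 genes with such a window. The palindrome TTCNNNGAA, the GAS element, was found in 6 of the 30 (20.0%) and in 9.55% of all genes. In the following windows, printed 5′ to 3′ along the gene's strand, capitals mark matches to the ISRE core.
Ddx60 (chr8:61927837-61928136, plus strand, 2 matches): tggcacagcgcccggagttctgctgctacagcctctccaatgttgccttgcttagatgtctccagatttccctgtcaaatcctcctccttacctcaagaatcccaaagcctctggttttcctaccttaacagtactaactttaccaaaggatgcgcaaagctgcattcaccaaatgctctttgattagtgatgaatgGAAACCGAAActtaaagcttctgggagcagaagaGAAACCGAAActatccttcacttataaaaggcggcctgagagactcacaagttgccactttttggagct
Oas1a (chr5:120907476-120907775, minus strand, 2 overlapping matches): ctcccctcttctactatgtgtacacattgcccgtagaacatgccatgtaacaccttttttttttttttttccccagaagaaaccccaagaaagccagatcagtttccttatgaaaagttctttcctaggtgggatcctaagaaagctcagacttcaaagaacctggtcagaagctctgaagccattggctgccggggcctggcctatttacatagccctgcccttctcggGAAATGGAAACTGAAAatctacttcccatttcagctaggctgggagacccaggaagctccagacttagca
Ifit3 (chr19:34583279-34583578, plus strand, 2 matches): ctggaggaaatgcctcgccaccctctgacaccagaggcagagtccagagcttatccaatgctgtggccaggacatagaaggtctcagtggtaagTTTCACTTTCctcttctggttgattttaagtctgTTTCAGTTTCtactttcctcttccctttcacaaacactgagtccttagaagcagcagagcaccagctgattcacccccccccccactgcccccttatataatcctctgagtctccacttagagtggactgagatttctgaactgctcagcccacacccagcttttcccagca
Ifit3b (chr19:34607707-34608006, plus strand, 2 matches): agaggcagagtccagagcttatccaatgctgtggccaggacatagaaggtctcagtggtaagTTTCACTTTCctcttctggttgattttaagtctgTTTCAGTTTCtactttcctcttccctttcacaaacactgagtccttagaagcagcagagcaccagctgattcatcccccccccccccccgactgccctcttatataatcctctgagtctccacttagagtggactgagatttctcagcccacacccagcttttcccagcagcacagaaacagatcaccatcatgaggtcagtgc
Isg15 (chr4:156200769-156201068, minus strand, 3 overlapping matches): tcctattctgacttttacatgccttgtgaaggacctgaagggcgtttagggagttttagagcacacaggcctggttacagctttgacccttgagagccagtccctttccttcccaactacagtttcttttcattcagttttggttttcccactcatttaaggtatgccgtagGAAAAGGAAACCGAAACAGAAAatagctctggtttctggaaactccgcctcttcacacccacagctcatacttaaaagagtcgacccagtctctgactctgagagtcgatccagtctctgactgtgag
Rsad2 (chr12:26456403-26456702, minus strand, 1 match): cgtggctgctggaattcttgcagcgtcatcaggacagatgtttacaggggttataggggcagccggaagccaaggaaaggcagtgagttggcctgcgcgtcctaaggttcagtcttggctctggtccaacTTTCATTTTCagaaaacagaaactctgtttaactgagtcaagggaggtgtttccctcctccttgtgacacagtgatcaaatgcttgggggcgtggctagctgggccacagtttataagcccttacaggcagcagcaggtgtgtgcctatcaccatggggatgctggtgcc
Dtx3l (chr16:35938978-35939277, minus strand, no match): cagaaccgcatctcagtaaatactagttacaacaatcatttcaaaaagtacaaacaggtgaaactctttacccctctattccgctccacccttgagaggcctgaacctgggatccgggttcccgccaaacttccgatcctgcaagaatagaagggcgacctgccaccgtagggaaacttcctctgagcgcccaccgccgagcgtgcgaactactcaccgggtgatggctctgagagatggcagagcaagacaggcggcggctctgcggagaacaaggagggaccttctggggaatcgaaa
Ifi44 (chr3:151749861-151750160, minus strand, no match): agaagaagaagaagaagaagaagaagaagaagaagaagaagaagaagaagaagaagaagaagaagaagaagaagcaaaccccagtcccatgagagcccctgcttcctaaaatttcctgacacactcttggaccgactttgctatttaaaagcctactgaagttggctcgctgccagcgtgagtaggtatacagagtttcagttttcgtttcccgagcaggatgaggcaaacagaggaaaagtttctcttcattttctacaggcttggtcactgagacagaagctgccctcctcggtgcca
In Isg15 the 3 matches overlap in a run that begins 78 bases before the start, and in Ddx60 the matches begin 53 and 19 bases before it. Ifit3 and Ifit3b carry the same pair of matched sequences, beginning 156 and 122 bases before the start in Ifit3 and 188 and 154 in Ifit3b. Of the 23 members with an unadjusted p under 0.05 in A537T at 30 weeks, 15 had a window and 7 of these held the core, and of the other 17 tested, 14 had a window and 7 held it. Dtx3l and Ifi44 are printed as members without a match, which says only that these letters are absent from the window.

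Levels of different genes were compared per kilobase of exon, in normalized counts per kb. In WT mice at 30 weeks, in the table shared with A537T, the highest was Bst2, the membrane protein tetherin that holds budding virions on the cell, at 127 ± 30.4 (SD, n = 3). It was followed by Ifi27, a small mitochondrial and nuclear membrane protein, at 110.0 ± 8.99, Trim25, a ubiquitin ligase that activates RIG-I, at 81.2 ± 3.78, Stat2 at 72.5 ± 6.27 and Ifi35 at 68.8 ± 5.40. Bst2 and Ifi27 overlapped within their spread, as did Stat2 and Ifi35. The lowest were Oas3 at 0.216 ± 0.210, Zbp1 at 1.21 ± 0.886, Mx2 at 1.71 ± 1.84 and Ifi44 at 1.90 ± 0.650. In A537T at 30 weeks Ifi27 was the highest, at 220.0 ± 40.3, and Bst2 was at 134 ± 46.3. Irf9 stood at 32.7 ± 2.36 in WT and 76.4 ± 2.7 in A537T, and moved from rank 11, tied with Dtx3l, to rank 6 of the 41.

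Of the signalling factors, Irf7 and Irf9 but not Stat2 separated from WT in A537T at 30 weeks. Irf7, the transcription factor that amplifies interferon production, was 45.7, 55.1 and 56.4 in the WT libraries and 142, 233 and 87.6 in libraries 7AF, 8AF and 9AF. All 3 A537T libraries lay above all WT libraries, and 8AF was the highest. The log2 fold change was 1.43 (SE 0.34), with an unadjusted limma p of 0.00378 and an adjusted p of 0.249. Irf9, the DNA-binding subunit of ISGF3, was 173, 165 and 190.0 in WT and 404, 428 and 402 in A537T. The 3 mutant values differed less from one another than the WT values did in proportion, and none came near WT. The log2 fold change of Irf9 was 1.22 (SE 0.11), and no gene in that comparison had a smaller limma adjusted p than its 0.137. Stat2, its partner, was 412, 473 and 405 in WT and 434, 527 and 372 in A537T, so the groups overlapped, with a log2 fold change of 0.037 (SE 0.15).

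Of the 7 RNA sensors, all were tested and all had a mean above WT in A537T at 30 weeks, 3 of them with an unadjusted limma p under 0.05. Ddx58, which encodes RIG-I, the receptor of short double-stranded and 5′-triphosphate RNA, was 113, 145 and 112 in WT and 260.2, 239 and 292 in A537T, with no overlap and a log2 fold change of 1.10 (SE 0.15). Eif2ak2, the kinase PKR that stops translation on binding double-stranded RNA, was 316, 306 and 236 in WT and 386, 489.7 and 364 in A537T, a log2 fold change of 0.53 (SE 0.17). Zbp1, a sensor of left-handed nucleic acid, was at the lowest levels, with 7.22, 4.59 and 0.990 in WT and 24.1, 26.0 and 13.1 in A537T. Its log2 fold change of 2.24 (SE 0.67) rests on 77 reads over the 6 libraries. Ddx60, a helicase that assists RIG-I, had a log2 fold change of 1.139 (SE 0.51), from 42.5, 14.9 and 38.6 in WT and 35.2, 96.4 and 82.1 in A537T, and these groups overlapped. Without WT library 2AF it was 0.68. Adar, the editing enzyme that marks self RNA, was the most abundant sensor by count. It was 339, 419 and 414 in WT and 431, 535 and 322 in A537T, with a log2 fold change of 0.11 (SE 0.20), and 9AF lay below every WT library. Ifih1, which encodes MDA5, the receptor of long double-stranded RNA, had a log2 fold change of 0.16 (SE 0.18), and Dhx58, which encodes their regulator LGP2, one of 0.20 (SE 0.33). Of the sensors of the RIG-I type, Ddx58 separated from WT while Ifih1 and Dhx58 overlapped it.

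The OAS enzymes make the messenger 2′-5′-oligoadenylate, which activates RNase L. Of 7 members, 6 were tested in A537T at 30 weeks, all 6 with a mean above WT, and 3 passed an unadjusted limma p of 0.05. Oasl2, an OAS-like protein, was the most abundant by count and had the largest log2 fold change, 1.74 (SE 0.47). It was 35.3, 102 and 37.6 in WT and 148, 281 and 127 in A537T, and WT library 2AF came closest to the mutants without reaching them. Oas2 had a log2 fold change of 1.45 (SE 0.43), from 9.62, 11.5 and 10.9 in WT to 27.1, 54.0 and 19.7 in A537T, and Oasl1, a second OAS-like protein, one of 1.06 (SE 0.32). For Oas1a the fold change was 0.59 (SE 0.39), for Oas1b 0.62 (SE 0.40) and for Oas1g 0.71 (SE 0.56), each with overlapping groups. Without 8AF they were 0.14 for Oas1a, 0.47 for Oas1b and 0.14 for Oas1g. Oas1a and Oas1g are similar enough in sequence that the division of reads between them is uncertain. Oas3, below the minimum of 10 and not tested, was 1.60, 0 and 2.97 in WT and 15.1, 27.96 and 5.48 in A537T, which did not overlap either. Library 8AF was the highest of the A537T libraries for Oas1a, Oas1b, Oas1g, Oas2, Oasl1 and Oasl2.

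The IFIT proteins bind viral RNA and translation factors, and their genes lie side by side on chromosome 19. Of the 4, 3 passed an unadjusted limma p of 0.05 in A537T at 30 weeks. Ifit3, which stabilises the IFIT1 complex, was 25.7, 41.3 and 44.5 in WT and 88.4, 95.4 and 105 in A537T, with a log2 fold change of 1.39 (SE 0.25), an unadjusted p of 0.000766 and an adjusted p of 0.182. Its near copy Ifit3b was 10.4, 16.1 and 10.9 in WT and 19.1, 27.0 and 35.1 in A537T, with a fold change of 1.04 (SE 0.37), and reads may be divided between the pair. Ifit1, which captures RNA lacking a methylated cap, had a smaller log2 fold change of 0.66 (SE 0.19), from 85.0, 67.7 and 67.3 to 119, 136 and 96.4. Ifit2, the most abundant member of the family by count, was 159.6, 95.2 and 122 in WT and 98.4, 118 and 120.5 in A537T, a fold change of -0.13 (SE 0.21) with overlapping groups. Ifit2 was thus the only IFIT member whose A537T libraries overlapped WT.

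The PARP group holds 3 ADP-ribosyltransferase genes and Dtx3l, the ubiquitin ligase that pairs with PARP9. Parp9 and Dtx3l lie head to head on chromosome 16, Parp9 on the plus strand from 35938470 to 35972605 and Dtx3l on the minus strand from 35926511 to 35939151 (GRCm38.p6). Their 5′ ends overlap, so the division of reads from the overlap is uncertain. Parp14 lies close by. Parp14, the most abundant by count, was 391, 364 and 364 in WT and 593, 797 and 614 in A537T at 30 weeks, with a log2 fold change of 0.83 (SE 0.14) and an adjusted limma p of 0.154. Parp9 was 114, 159 and 131 in WT and 295, 219 and 305 in A537T, a fold change of 1.01 (SE 0.19). Dtx3l, whose promoter window is printed above, was 168, 213 and 179 in WT and 368, 269.9 and 405 in A537T, a fold change of 0.88 (SE 0.18). The 3 neighbouring genes had A537T libraries wholly above WT, but 8AF was the highest library for Parp14 and the lowest for Parp9 and Dtx3l. Parp12, on chromosome 6, had a log2 fold change of 0.22 (SE 0.15), with overlapping groups.

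Among the genes of ISG15 and ubiquitin, Herc6, the mouse ligase that attaches ISG15 to proteins, was 33.7, 61.9 and 47.5 in WT and 133, 90.6 and 142 in A537T at 30 weeks, with a log2 fold change of 1.35 (SE 0.28). Usp18, the protease that removes ISG15 and restrains the receptor, was 15.2, 17.2 and 16.8 in WT and 42.2, 45.3 and 27.4 in A537T, a fold change of 1.143 (SE 0.30). Both had groups that did not overlap. Isg15 itself, the ubiquitin-like modifier whose promoter held 3 core matches, was counted at 12.0, 11.5 and 4.95 in WT and 17.1, 27.0 and 8.76 in A537T, only 83 reads over 6 libraries, with a fold change of 0.78 (SE 0.56) and overlapping groups. Trim25 was 484, 443 and 474 in WT and 498, 569.7 and 449 in A537T, a fold change of 0.11 (SE 0.12).

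The antiviral effectors ranged from -0.059 to 2.5 in log2 fold change in A537T at 30 weeks, and 5 of the 8 had an unadjusted limma p under 0.05. Samd9l, a restriction factor that blocks translation, was the most abundant by count. It was 84.2, 147 and 134 in WT and 377, 192 and 536 in A537T, a fold change of 1.51 (SE 0.39), with 8AF nearest to WT. Rtp4, a zinc-finger inhibitor of flaviviruses, was 24.1, 13.8 and 20.8 in WT and 63.3, 103 and 52.6 in A537T, a fold change of 1.82 (SE 0.34). Trim30a, a member of the TRIM family, had a fold change of 1.21 (SE 0.22). Mx2, a dynamin-like GTPase, was 2.41, 2.29 and 13.9 in WT and 49.2, 41.5 and 13.1 in A537T. WT library 3AF lay above A537T library 9AF, so its fold change of 2.5 (SE 0.78) came with overlapping groups. Rsad2, the radical enzyme viperin, was 60.2, 56.2 and 55.4 in WT and 80.4, 101 and 89.8 in A537T, a fold change of 0.65 (SE 0.17). Its neighbour on chromosome 12, Cmpk2, a nucleotide kinase of mitochondria, had 0.33 (SE 0.20), with overlapping groups. Mx1 and Bst2, at -0.059 and 0.047, also overlapped WT. Many laboratory strains carry a defective Mx1 allele.

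Of the remaining members, Ifi44, a gene of uncertain role, was 7.22, 14.9 and 12.9 in WT and 53.2, 78.1 and 48.2 in A537T at 30 weeks. Every mutant library was above 3 times the highest WT library, and the log2 fold change was 2.29 (SE 0.36), with an unadjusted limma p of 0.000344 and an adjusted p of 0.153. Ifi27 was 159, 149 and 175 in WT and 278, 389 and 299 in A537T, a fold change of 0.98 (SE 0.16). Ifi35, an interactor of NMI, and Xaf1, an antagonist of the apoptosis inhibitor XIAP, had fold changes of 0.24 (SE 0.21) and 0.52 (SE 0.43), and both overlapped WT.

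Over the whole list, 22 of the 40 members tested in A537T at 30 weeks had all 3 mutant libraries above all 3 WT libraries and 0 had all below, where 9.18% and 9.4% of all genes did. DESeq2, run on reads recovered from the normalized counts, called 14 of the members at an adjusted p under 0.05, all higher, against a background of 2.21% of genes called higher. These were Irf7, Irf9, Ddx58, Oasl2, Ifit3, Parp9, Parp14, Dtx3l, Herc6, Samd9l, Trim30a, Rtp4, Ifi44 and Ifi27. edgeR, run on the same reads, called 0 members and 0 genes, with 23 members higher at an unadjusted p under 0.05, where 1279 of 14789 genes were. Without library 8AF, limma called 12 members, all higher, and all of them had been called by DESeq2 on all libraries. Leaving 8AF out raised calls over the whole table as well, from 0% to 5.03% of genes called higher. Counts of members at an unadjusted limma p under 0.05 and higher were 22 to 24 when any single library of that comparison was left out, where 3.83% to 13.5% of all genes passed.

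**Figure D3:**
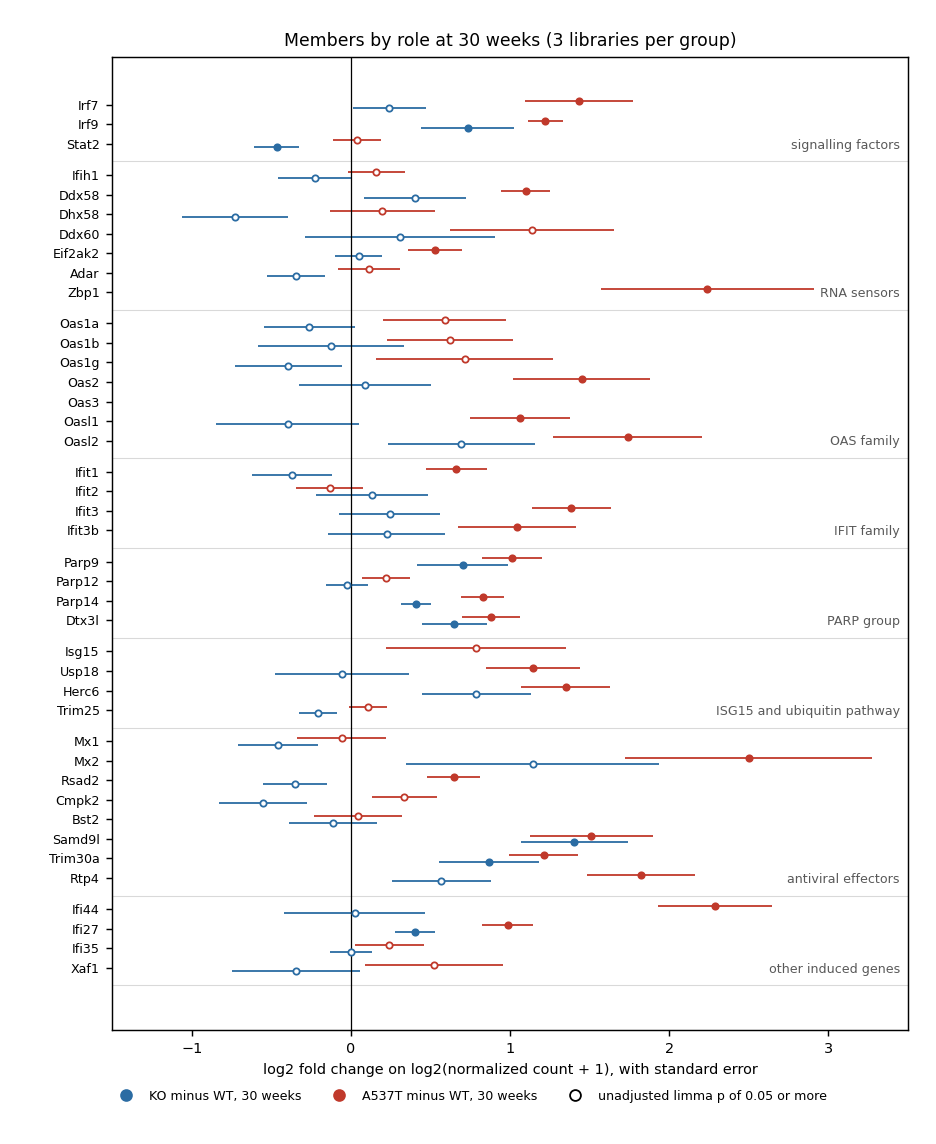
Log2 fold change at 30 weeks (horizontal axis, mutant minus WT, with its standard error) for each member grouped by role (vertical axis), for KO (blue) and A537T (red); filled points have an unadjusted limma p under 0.05, open points do not, and members without a point were not tested. Filled red points number 23 and filled blue points 8, of which 1, Stat2, lies below 0.

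In KO at 30 weeks the members did not lie on 1 side of WT: 20 of the 38 tested had a mean above WT and 18 below. At an unadjusted limma p under 0.05, 7 were higher (Irf9, Parp9, Parp14, Dtx3l, Samd9l, Trim30a and Ifi27) and Stat2 was lower. Groups did not overlap for 5 members on the higher side and 4 on the lower, where 7.92% and 8.41% of all genes did so. Samd9l was 413, 188 and 344 in KO libraries 4AF, 5AF and 6AF and 79.6, 141 and 127 in WT. Its log2 fold change was 1.40 (SE 0.34), with an adjusted limma p of 0.381. It was the only member that DESeq2 called in KO at 30 weeks, with a DESeq2 adjusted p of 0.00577 and a background of 1.32% of genes called higher. edgeR called 0 members there, with 8 higher and 1 lower at an unadjusted p under 0.05, where 1043 and 709 of 14729 genes were. Without 5AF, limma called 6 of 38 members, all higher (Irf9, Ddx58, Parp9, Dtx3l, Samd9l and Trim30a), where 4.07% of all genes were called higher.

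Irf9 was 332, 178 and 411 in KO at 30 weeks and 171, 164 and 188 in WT, a fold change of 0.73 (SE 0.29), with 5AF inside the WT range. Stat2 was 258, 336 and 333 in KO and 408, 468 and 400.0 in WT, and all KO libraries lay below WT, with a log2 fold change of -0.47 (SE 0.14) and an unadjusted limma p of 0.0129. Irf9 and Stat2, which join in ISGF3, thus had values on opposite sides of WT in this comparison. With the seminal vesicle score (the mean log2 level of 8 marker genes) as a covariate, however, Irf9 was at 0.092 and Stat2 at -0.33. Among the KO libraries at 30 weeks only 5AF lacked seminal vesicle RNA, as WT did. Fits with this score, here and below, therefore rest largely on 5AF. Irf7, at 50.4, 58.7 and 80.3, had a fold change of 0.24 (SE 0.23) and overlapped WT.

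The PARP group had the highest median of the 8 role groups in KO at 30 weeks, 0.53, and 3 of its 4 members passed an unadjusted limma p of 0.05. Parp14 was 474, 460.4 and 465 in KO and 369, 343 and 344 in WT, a fold change of 0.41 (SE 0.094), and its KO libraries differed little among themselves. Dtx3l was 355, 220.3 and 326 in KO and 169.7, 215 and 180.2 in WT, a fold change of 0.65 (SE 0.20), with 5AF just above the highest WT library. Parp9 was 307, 145 and 242 in KO and 115, 162 and 133 in WT, a fold change of 0.70 (SE 0.29), with 5AF within the WT range. Parp12 had a fold change of -0.024 (SE 0.13). With the seminal vesicle score as a covariate Parp9 was at 0.17, Dtx3l at 0.28 and Parp14 at 0.38, and the group's median was 0.23, below 0.48 for the IFIT members and 0.28 for the antiviral effectors.

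No RNA sensor, OAS or IFIT member passed an unadjusted limma p of 0.05 in KO at 30 weeks, and their medians were -0.088, -0.19 and 0.18. Sensor fold changes were -0.22 (SE 0.23) for Ifih1, 0.40 (SE 0.32) for Ddx58, -0.73 (SE 0.33) for Dhx58, 0.31 (SE 0.60) for Ddx60, 0.048 (SE 0.15) for Eif2ak2 and -0.35 (SE 0.18) for Adar. With the seminal vesicle score as a covariate Ddx58 was at -0.28 and Ifih1 at 0.28, on the other side of WT. Adar was 273, 409 and 285 in KO and 351, 435 and 428 in WT, and Ddx60 was 17.2, 69.0 and 34.9 in KO and 41.01, 13.8 and 37.6 in WT. Zbp1, Oas3 and Isg15 were below the minimum and untested. OAS fold changes were -0.26 (SE 0.29) for Oas1a, -0.12 (SE 0.46) for Oas1b, -0.39 (SE 0.34) for Oas1g, 0.089 (SE 0.42) for Oas2, -0.40 (SE 0.45) for Oasl1 and 0.69 (SE 0.46) for Oasl2. Oas1a was at 0.21 with that score as a covariate. Oasl2 was 59.0, 61.7 and 115 in KO and 31.4, 91.0 and 33.7 in WT, so its groups overlapped. IFIT fold changes were -0.37 (SE 0.25) for Ifit1, 0.13 (SE 0.35) for Ifit2, 0.24 (SE 0.32) for Ifit3 and 0.23 (SE 0.37) for Ifit3b. Ifit2 was 89.8, 218 and 113 in KO, with 5AF the highest of all 6 libraries, and 155, 92.2 and 118 in WT. Ifit3 was 30.7, 52.9 and 47.7 in KO and 25.7, 40.3 and 44.6 in WT.

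Of the other members in KO at 30 weeks, Herc6 was 55.3, 72.0 and 116 against 32.2, 59.9 and 45.5 in WT, a fold change of 0.79 (SE 0.34), and Trim25 was 392.3, 477 and 383 against 499, 456 and 487, a fold change of -0.21 (SE 0.12). Trim30a had a fold change of 0.87 (SE 0.31). Ifi27 was 226, 199.7 and 214 in KO and 159, 149.8 and 175 in WT, with no overlap and a fold change of 0.40 (SE 0.12). The neighbours Rsad2 and Cmpk2 both had KO libraries wholly below WT, at 40.6, 40.4 and 54.7 against 60.3, 56.4 and 55.4 and at 25.8, 50.7 and 39.5 against 58.7, 51.8 and 55.4. Their fold changes of -0.35 (SE 0.20) and -0.55 (SE 0.28) had unadjusted limma p values of 0.127 and 0.0853. Beside Stat2 and these neighbours, Oas1g also had KO libraries wholly below WT. Ifi44, at 11.1, 17.6 and 10.5, had a fold change of 0.024 (SE 0.44). Rtp4 had KO libraries wholly above WT and a fold change of 0.57 (SE 0.31). Usp18, Mx1, Mx2, Bst2, Ifi35 and Xaf1 overlapped WT, with fold changes from -0.46 for Mx1 to 1.141 for Mx2. The difference between the KO and A537T lines was not tested, since each is measured in its own table against the same WT mice.

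**Figure D4:**
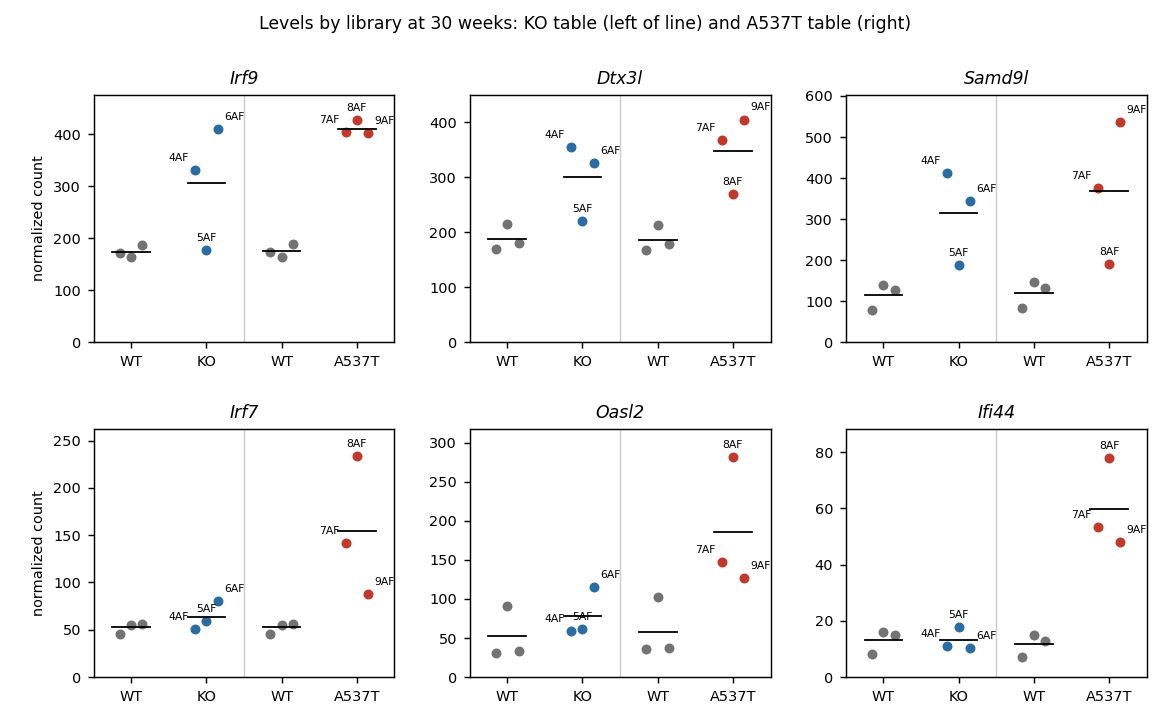
Normalized counts (vertical axis, from 0) of 6 members in every 30-week library, by group (horizontal axis); the WT and KO values of the KO table are left of the line, the WT and A537T values of the A537T table are right of it, and bars are group means. In the upper panels libraries 5AF and 8AF are the mutant libraries nearest to WT for Dtx3l and Samd9l, and in the lower panels 8AF is the highest library.

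The libraries of a mutant group spread more for these genes than for others at 30 weeks. The within-group SD on the log2 scale had a median over the members of 0.353 in A537T and 0.41 in KO, where the median over all genes tested was 0.248 and 0.252. In the WT libraries of the same tables the members' median SD was 0.219 and 0.216, and that of all genes 0.217 and 0.216. At 10 weeks the members' median SD was 0.279 in KO and 0.202 in A537T, against 0.204 and 0.223 for all genes. In A537T at 30 weeks Irf9 had the lowest SD, 0.0504, and Oas1g the highest, 1.15.

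In A537T at 30 weeks library 8AF had a median difference from the WT mean of 1.02 over the members, whereas 7AF and 9AF had 0.701 and 0.715. It was the highest of the 3 for 30 of the 40 members tested and for 41.9% of all genes. It was the lowest for 5 members, Ddx58, Parp9, Dtx3l, Herc6 and Samd9l, and for 38.9% of all genes. In KO at 30 weeks, library 5AF was the highest of the 3 for 20 of 38 members and for 40.9% of all genes. It was the lowest for 11 members and for 38.8% of all genes, among the members Irf9, Ddx58, Parp9, Parp14, Dtx3l, Samd9l and Trim30a. The 4 members Ddx58, Parp9, Dtx3l and Samd9l were lowest in both 5AF and 8AF, and 17 of the 38 tested in both tables, among them Adar, Oas1a, Oas2, Ifit1, Mx1, Cmpk2 and Ifi44, were highest in both. For all genes tested in both tables the shares were 23.2% and 25.4%. These are the mutant libraries at 30 weeks that lacked seminal vesicle RNA, and the part of that RNA in the members' levels was not tested. These libraries were compared after their values were seen.

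In the KO table at 30 weeks, Samd9l was 413 and 344 normalized counts in the KO libraries with seminal vesicle RNA, 188 in 5AF and at most 141 in WT. In the A537T table it was 377 and 536 in the A537T libraries with that RNA, 192 in 8AF and at most 147 in WT. In the KO table at 10 weeks it was 363, 299.8 and 329 in the KO libraries, whose seminal vesicle share was 6.55% to 10.3%, and 250.4, 136 and 109 in WT libraries 10AF, 11AF and 12AF, whose shares were 4.64%, 1.76% and 0.000808%. In the A537T table of that age it was 143, 178 and 204 in A537T, with a share of at most 0.191%, and 273, 145 and 118 in WT. The seminal vesicle genes were nearly absent from 8AF. Of the 40 members tested in A537T at 30 weeks, 30 were highest in 8AF, among them Irf7, Oasl2 and Ifi44, as were 41.9% of all genes. The lowest value was in 8AF for 5 members, among them Samd9l, and for 38.9% of all genes. Ifi44 in the KO libraries with that RNA was 11.1 and 10.5, within the WT range. With the seminal vesicle score as a covariate, the members' median was 1.01 in A537T and 0.18 in KO at 30 weeks, and 26 of 40 members in A537T had an unadjusted limma p under 0.05 on the higher side, where 3.95% of all genes did. In KO 2 of 38 members did, Parp14 and Samd9l, where 2.78% of all genes did, and 7 of the 38 turned to the other side of WT. Only 8AF in A537T and 5AF in KO had a seminal vesicle share like that of WT, so these fits rest largely on those libraries. Over the members, 8AF had a median difference from the WT mean of 1.02 and 5AF one of 0.168. The part of seminal vesicle RNA in these levels was not tested.

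**Figure D5:**
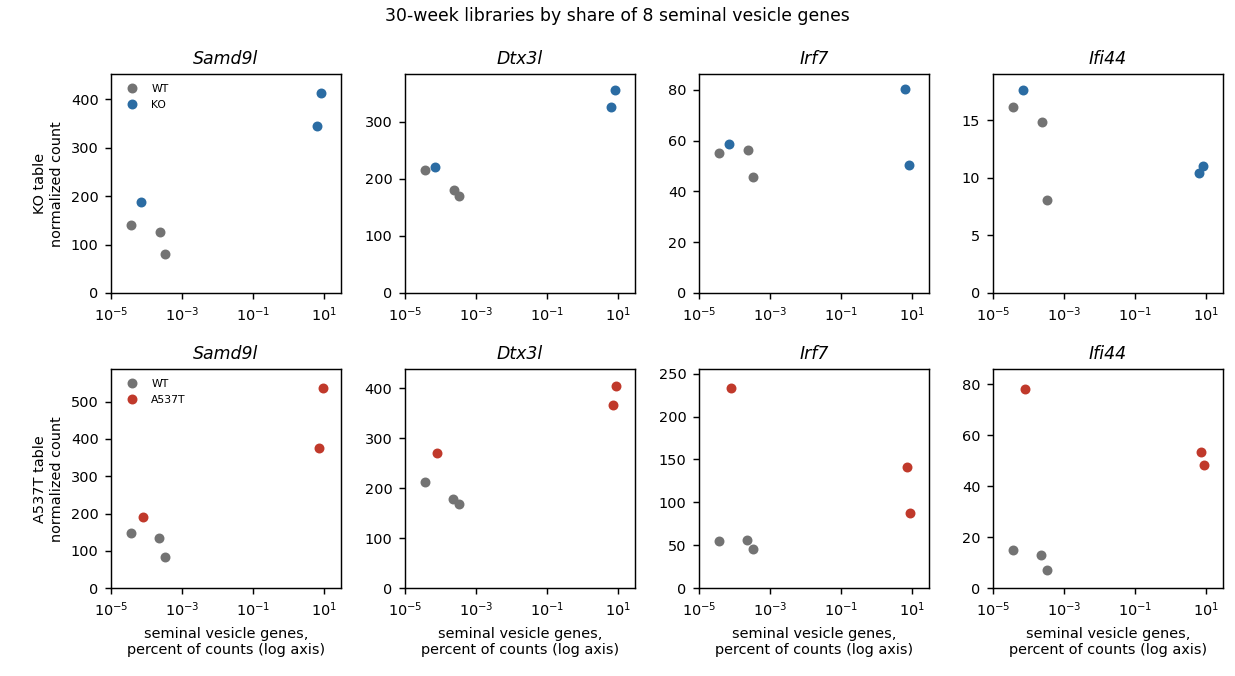
Normalized count (vertical axis, from 0) of 4 members in the 30-week libraries by the percent of counts from 8 seminal vesicle genes (horizontal log axis); each point is a library of WT (grey), KO (blue) or A537T (red), with the KO table in the upper row and the A537T table in the lower. In both rows Samd9l and Dtx3l are highest in the libraries with 6.32% to 9.17%, while in the lower row Irf7 and Ifi44 are highest in library 8AF at 7.99e-05%.

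At 10 weeks the KO comparison had 36 members tested, 20 with a mean above WT. The 5 with an unadjusted limma p under 0.05 and a higher level were Dtx3l, Samd9l, Adar, Parp9 and Herc6, and the 2 with a lower level were Cmpk2 and Dhx58. Dtx3l was 382, 331 and 389.8 in KO and 279, 219.9 and 192 in WT, with a log2 fold change of 0.69 (SE 0.17). It was the only member that DESeq2 called, at a DESeq2 adjusted p of 0.0391, with 1.21% of genes called higher. edgeR called 0 members, with 4 higher and 2 lower at an unadjusted p under 0.05, where 1001 and 1805 of 15089 genes were. The fold changes of Samd9l, Herc6 and Parp9 were 1.085 (SE 0.30), 1.04 (SE 0.41) and 0.65 (SE 0.23). For Herc6 and Parp9 WT library 10AF lay among the KO libraries. Seminal vesicle genes made up 6.55% to 10.3% of the counts in these KO libraries and 0.000808% to 4.64% in WT, the most in 10AF. No 10-week fit held a seminal vesicle score, and the part of that RNA in these differences was not tested. Herc6 was 104, 40.0 and 36.7 in WT and 113, 93.7 and 129 in KO. Without 10AF, limma called 5 of 36 members, all higher (Irf9, Parp9, Dtx3l, Herc6 and Samd9l), where it called 9.62% of all genes higher, so that the members' share lay near that of all genes. Without any 1 of the other libraries 2 to 4 members had an unadjusted p under 0.05 on the higher side, where 3.26% to 5.26% of all genes did.

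Adar was 277, 385 and 303 in KO at 10 weeks and 226, 246 and 222 in WT, with no overlap and a fold change of 0.46 (SE 0.16). Dhx58 was 26.6, 14.1 and 9.15 in KO and 33.3, 43.3 and 34.7 in WT, a fold change of -1.23 (SE 0.41), and Cmpk2 was 35.2, 35.1 and 29.7 in KO and 53.8, 53.3 and 51.0 in WT, a fold change of -0.65 (SE 0.21). Both had KO libraries wholly below WT, as did Oas1a. In all, 4 of the 36 members tested lay wholly above WT and 3 wholly below it. The share of all genes that did so is not given here. Members with an unadjusted limma p of 0.05 or more had fold changes from -1.002 for Oas1a to 0.51 for Ifit3. Zbp1, Oas1g, Oas3, Oasl1 and Isg15 were below the minimum in both tables of that age. The median fold changes by role in KO at 10 weeks were 0.14 for sensors, 0.24 for OAS, 0.089 for IFIT and 0.43 for PARP members. With the skeletal muscle score as a covariate, 1 of 36 members, Adar, had an unadjusted limma p under 0.05 on the higher side, where 1.09% of all genes did. The members' median was then 0.18, with 27 of 36 above WT, and 13 had turned to the other side of WT. Every KO library had a smaller muscle share than every WT library, 0.0264% to 0.834% against 1.5% to 5.24%. Fits of KO with this score, here and below, can therefore hardly separate it from genotype. With libraries scaled to the same total 9 of 36 members passed on the higher side, where 12.7% of all genes did and the median of all genes was 0.2044.

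In A537T at 10 weeks 24 of 36 members had a mean above WT, and Adar and Ifi44 had an unadjusted limma p under 0.05. Ifi44 was 33.0, 31.4 and 46.4 in A537T and 14.5, 16.4 and 18.1 in WT, all mutant libraries above WT, with a fold change of 1.11 (SE 0.30). Adar was 325, 329 and 386 in A537T and 227, 243 and 220.5 in WT, a fold change of 0.59 (SE 0.14). Both limma adjusted p values were 0.746. Rtp4, at 34.0, 40.0 and 30.3 against 30.0, 12.1 and 18.1, also had mutant libraries wholly above WT, with a fold change of 0.84 (SE 0.38). So did Adar, Stat2 and Cmpk2, which made 5 of the 36 members, and 0 lay wholly below WT. Stat2 and Cmpk2 each had a fold change of 0.25. The share of all genes wholly on 1 side of WT is not given here. Other members had fold changes from -0.63 for Dhx58 to 0.92 for Xaf1. The median fold changes by role were 0.076 for sensors, -0.23 for OAS, 0.17 for IFIT and 0.096 for PARP members. DESeq2 and edgeR each called 0 members, with 2 higher and 0 lower at an unadjusted p under 0.05. Of all genes, 417 were higher and 711 lower at that level among 15102 by DESeq2, and 413 and 687 among 15131 by edgeR. The median over the members was -0.02 with the skeletal muscle score as a covariate, and 9 of the 36 turned to the other side of WT.

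Whether the difference from WT itself differed between ages was tested in a fit of 12 libraries for each line, each difference taken within its own table. In A537T, 15 of 36 members had an unadjusted limma p under 0.05 with a larger difference at 30 weeks, and 0 with a smaller one, where 6.18% and 5.88% of all genes did. Irf9 had the smallest p among them, and its difference was 1.31 (SE 0.22) larger at 30 weeks, with an unadjusted p of 9.06e-05 and an adjusted p of 0.15. For Irf7 the difference was larger by 1.65 (SE 0.46), for Ddx58 1.03 (SE 0.25), for Oasl2 1.97 (SE 0.67), for Ifit3 1.20 (SE 0.44), for Dtx3l 1.06 (SE 0.26) and for Ifi27 1.04 (SE 0.22). Ifi44, already above WT at 10 weeks, had a further 1.175 (SE 0.45). In KO, 2 members, Trim30a and Ifi27, had a larger difference and 3, Stat2, Adar and Trim25, a smaller one at 30 weeks, where 7.13% and 4.93% of all genes did. Adar had -0.81 (SE 0.25), from 0.46 at 10 weeks to -0.35 at 30 weeks. No member passed an adjusted limma p of 0.05 in either line, a background of 0%. Without 8AF, 3 of 36 members did in A537T, all larger at 30 weeks (Irf9, Dtx3l and Ifi27), where 1.69% of all genes did. These fits held no tissue score, although seminal vesicle RNA differed between the ages. In the A537T table at 10 weeks it was 4.46% in 10AF and 1.7% in 11AF, both WT, and at most 0.191% in A537T. At 30 weeks it was 7.24% in 7AF and 9.17% in 9AF, both A537T, and at most 0.000326% in WT. Its part in the change with age was not tested.

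The rest of the pathway was read from a list of 77 further genes. All 18 interferon ligand genes together gave 0 to 2 reads in any library, so that none could be tested. A count of 0 allows up to 3 reads, which is 2.67e-05% to 4.57e-05% of a library, for counting error only. Of the receptor chains, Ifnar1 was 263, 401 and 422 in A537T at 30 weeks and 184, 228 and 223 in WT, with a log2 fold change of 0.75 (SE 0.20) and a DESeq2 adjusted p of 0.0351. In KO at 30 weeks it was 328, 327 and 379, a fold change of 0.72 (SE 0.13) and a DESeq2 adjusted p of 0.00745. Ifnar2, Jak1 and Tyk2 had fold changes between -0.084 and 0.071 in both lines at 30 weeks. In both lines all mutant libraries lay above WT for Ifnar1.

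Among the 11 sensing and induction genes tested in A537T at 30 weeks, Irf5 alone had an unadjusted limma p under 0.05, with a fold change of 1.20 (SE 0.33), and of the 5 restraint genes tested, Trex1, a nuclease that clears cytosolic DNA, did, at 0.65 (SE 0.23). Among 34 further induced genes tested, 13 had an unadjusted p under 0.05 and were higher, and Isg20 and Tor3a were lower. Of all genes in that comparison, 7.35% were higher and 6.28% lower at that level. The median over the 34 was 0.51. Slfn5, a Schlafen family gene, was 382, 463 and 308 in A537T and 168, 206 and 207 in WT, a fold change of 0.97 (SE 0.18), Ifitm3, which blocks viral fusion, had one of 0.71 (SE 0.15), and Ifi203 and Ifi204, of the DNA-binding IFI200 family, 1.37 (SE 0.32) and 1.45 (SE 0.39). DESeq2 called 7 of the 34, and 9 of the 55 pathway genes tested, where it called 476 of 14778 genes. Isg20, an exonuclease, was 99.4, 136 and 133 in A537T and 154, 167 and 199.9 in WT, a fold change of -0.50 (SE 0.18), and in KO at 30 weeks it was 113, 141 and 94.2, a fold change of -0.59 (SE 0.19). In KO at 30 weeks 1 of 33 further induced genes had an unadjusted p under 0.05 and was higher, Slfn2 at 0.82 (SE 0.31), and 1 was lower. Of all genes there, 5.56% were higher and 5.41% lower at that level. The median over the 33 was 0.14. At 10 weeks the medians of the further induced genes were 0.066 in KO and 0.15 in A537T. No pathway gene passed an adjusted limma p of 0.05 in any comparison.

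Markers of some immune cells lay above WT in the mutant libraries at 30 weeks. The summed level of 4 pan-leukocyte genes was 241 to 259 normalized counts in WT and 402 to 631 in A537T, and 4 of 4 had an unadjusted limma p under 0.05. In KO the sum was 367 to 480, against 237 to 255 in WT, and 3 of 4 did. The 7 macrophage genes summed to 791 to 1009 in WT and 1334 to 2754 in A537T, where 6 of 7 had an unadjusted limma p under 0.05. In KO they summed to 934 to 1981, against 782.4 to 999.9 in WT, so the groups overlapped, and 1 of 7 had such a p. Library 8AF had the highest sum of A537T and 5AF that of KO. Of all genes tested at 30 weeks, 7.35% in A537T and 5.56% in KO were higher at an unadjusted limma p under 0.05. The 7 B and plasma cell genes summed to 409 to 814 in WT and 1463 to 6470 in A537T, but to 576 to 689 in KO, against 412.5 to 822.5 in WT. In A537T, Jchain, the joining chain of secreted antibody, was 330.5, 602 and 218, against 53.7, 102 and 85.1 in WT, and Ighm was 2469, 5804 and 1205 against 347, 701 and 599. T cell genes summed to 41.2 to 67.5 in A537T, wholly above 19.8 to 33.7 in WT, and to 34.4 to 38.9 in KO, against 20.8 to 34.6. Plasmacytoid dendritic cell genes summed to 12.3 to 22.1 in KO, wholly above 4.61 to 10.45 in WT, and to 9.64 to 25.1 in A537T, against 4.59 to 11.2. NK cell genes summed to at most 17.5 and overlapped WT in both lines. These sums are low, and Siglech, Cd3d and Cd8a were at most 8.76 in any 30-week library. At 10 weeks pan-leukocyte sums were 182 to 377 in WT and 229.5 to 313 in KO in the KO table, and 193 to 404 in WT and 238 to 303 in A537T in the A537T table. The part of immune cells in the members' levels was not tested.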

How the data were processed

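RNA-seq of ventral and lateral prostate lobes was deposited as 4 tables of 6 libraries, with 55469 genes in each. Per the submitters' processing notes and the study's methods, the authors trimmed reads with Trim Galore 0.4.1 and cutadapt 1.18, aligned them with STAR 2.7.3a to GRCm38.p6 with the GENCODE vM24 annotation, quantified them with Salmon, and scaled them with DESeq2 1.26. The deposited signal values are gene counts divided by 1 size factor per library, set separately in each table, so levels were compared only within a table, and ranges over all libraries span the tables. Multiplying by the size factor gave whole numbers for at least 99.99% of values (tolerance 0.05 reads), and these recovered reads are rounded Salmon estimates. For 3AF in both 30-week tables, 7AF, and 18AF, the size factor was so close to 1 that this could not be checked separately. The same WT library differed between its 2 tables in 53.6% to 64.1% of genes with reads, by a median of 1 read. Tables of the authors' own fold changes and s-values were not used, except that their mean counts served to tell which mutant line a table held.

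limma 3.58.1 in R 4.3.3 was fitted with a mean trend to log2(normalized count + 1) over all genes with a mean of at least 10 in the table, mutant against WT. Fold changes on this scale understate those of low genes. Two-sided p-values were adjusted by Benjamini-Hochberg over all genes tested, with a threshold of 0.05. The change with age was a contrast over both tables of a line. edgeR 4.0.16 and DESeq2 1.42.0 were run on recovered reads as alternatives, and the fits were tested on simulated data. Other alternatives were the pseudocount, the minimum mean count, the scaling and leaving out each library. The members and gene lists were chosen with earlier results of these data known. Values in every library are given for the most abundant member of each role and for that with the largest absolute fold change among those with a mean of at least 50 in A537T at 30 weeks, and further members were named after their values were seen. Promoter windows came from RefSeq, build GRCm38.p6, and levels per kb from the annotated exon length. The result for 1 pathway gene is not reported here.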

Additional observations from a re-analysis of the deposited data

Results flagged for a closer look

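Rsad2 lay on opposite sides of WT in the mutant lines at 30 weeks. All 3 KO libraries were below all 3 WT libraries, with a log2 fold change of -0.351, and all 3 A537T libraries were above them, with 0.6454. At 10 weeks the same held for its neighbour Cmpk2, with -0.6482 in KO and 0.2507 in A537T. The difference between the lines was not tested in either case, and the lines share their WT mice. Rsad2 in KO at 30 weeks had an unadjusted limma p of 0.127. Of all genes at 30 weeks, 8.41% lay wholly below WT in KO and 9.18% wholly above it in A537T. The share of genes on opposite sides in both lines is not given here for either age.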

How the results depend on the processing

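Under limma on all libraries no member was called in any comparison, and a count of 0 calls changed with the tool and with single libraries. DESeq2 called 14 members in A537T at 30 weeks, 1 in KO at 30 weeks and 1 in KO at 10 weeks, and 9, 1 and 1 pathway genes. Of all genes it called 476 of 14778, 285 of 14723 and 715 of 15043 there. Leaving out 1 library in turn gave 0 to 12 members called in A537T at 30 weeks (12 without 8AF), 0 to 6 in KO at 30 weeks (6 without 5AF), 0 to 5 in KO at 10 weeks (5 without 10AF) and 0 to 3 for the change with age in A537T (3 without 8AF). Calls rose over all genes in these fits, with 5.03%, 4.07%, 9.62% and 1.69% of genes called on the higher side. For pathway genes the ranges were 0 to 4 in A537T at 30 weeks, 0 to 2 in KO at 30 weeks and 0 to 7 in KO at 10 weeks. With all libraries 55, 52 and 55 pathway genes were tested there. Of all genes, limma called on either side at most 1224 of 14801 (without 8AF), 944 of 14732 (without 5AF) and 2886 of 15044 (without 10AF). The cause was not tested.

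Members at an unadjusted limma p under 0.05 and higher numbered 10 in A537T at 30 weeks and 1 in A537T at 10 weeks with a minimum mean of 100, where fewer members are tested and 5.8% and 2.58% of all genes passed. In KO at 10 weeks they were 9 with libraries scaled to the same total (12.7% of all genes) and 1 with the skeletal muscle score as a covariate (1.09%), and in KO at 30 weeks 2 with the seminal vesicle score (2.78%). Leaving out libraries gave 22 to 24 in A537T at 30 weeks, 2 to 5 in A537T at 10 weeks (5 of 37 without 10AF, where 10.6% of all genes passed), 3 to 8 in KO at 30 weeks (3 without 1AF or 6AF, where 4.36% and 2.44% passed) and 2 to 10 in KO at 10 weeks (2 without 12AF and 3 without 11AF, 13AF or 15AF, where 3.26% to 5.14% passed, and 10 without 10AF, where 17.6% did). Those with a larger difference at 30 weeks numbered 7 of 14 in A537T and 1 of 14 in KO with a minimum mean of 100. Of all genes, 5.49% and 7.32% passed there. In KO they were 1 of 36 after quantile normalization (5.81% of all genes) and 0 of 36 with the same total (3.61%). Without 1 library they were 0 to 3 of 36 in KO, where 5.13% to 11.6% of all genes passed.

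The members' median log2 fold change moved to 0.24 in A537T and 0.33 in KO at 10 weeks with the same total, a scaling that moved the median of all genes to 0.1486 and 0.2044. It was -0.02 in A537T at 10 weeks with the skeletal muscle score. At 30 weeks it was 0.68 in A537T with a minimum mean of 100, and 1.013 in A537T and 0.18 in KO with the seminal vesicle score. Without 1 library it was 0.77 to 0.93 in A537T and -0.057 to 0.11 in KO at 30 weeks, 0.02 in KO at 10 weeks without 14AF and 0.24 without 15AF, and 0.035 in A537T at 10 weeks without 11AF and 0.17 without 17AF.

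With a marker score as a covariate, 13 of 36 members turned to the other side of WT in KO and 9 of 36 in A537T at 10 weeks, and 7 of 38 in KO and 1 of 40 in A537T at 30 weeks. With the seminal vesicle score, Adar in KO at 30 weeks was at 0.013 and Elac2 in A537T at 30 weeks at 0.19. Without 1 library in turn, at 30 weeks, A537T ranges were -0.061 to 0.30 for Adar, -0.32 to 0.053 for Ifit2 and -0.093 to 0.16 for Stat2, and KO ranges were -0.17 to 0.80 for Ddx60 and -0.24 to 0.40 for Ifit2. Of 555 values computed for 38 named results, 524 kept their direction and side of the threshold, 22 passed it only under the alternative and 9 turned. The unadjusted counts, the marker scores and the named members' covariate values were added after seeing the data. No paired analysis was possible because the deposited columns carry no replicate numbers. With 3 libraries a group, and reads of low members such as Oas3, Isg15 and Zbp1 under 100 in a table, small differences may go undetected.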
